A study of Mus musculus with 10 samples.

Results

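A total of 100 genes whose arrays read lower in all 5 sarcomatoid tumors than in all 5 adenocarcinomas of the mouse mammary gland are described here. The genes were chosen by the gap on the authors' log2 table, which is the lowest adenocarcinoma minus the highest sarcomatoid tumor. A gene was kept where the gap was above 0 and its probe was well above background in the tumor channel of all 5 adenocarcinoma arrays. Of 27962 gene names on the array 124 met this rule, and the 100 with the largest gap were taken. Because the difference between the 2 tumor types selected these genes, its values are given as a description and no test of it was made. The groups did not overlap, with sarcomatoid tumors lower, for 188 of 40197 probes (0.468%), of which 142 were well above background, while 348 probes were higher in all sarcomatoid tumors.

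The 10 tumors were measured on 1 array each, as log2 ratios of tumor over a common reference. The sarcomatoid (spindle cell) carcinomas were tumors 323, 307 and 594 of the mammary gland and 2 lung tumors, which grew after tail vein injection of cell lines made from tumors 323 and 307. The group therefore holds 3 tumor origins. Per the study's methods, 1 sarcomatoid primary carried Pik3ca H1047R;Trp53 R270H;MMTV-Cre, another carried Pik3ca H1047R;MMTV-Cre with a spontaneous Trp53 R245H mutation, and the last carried Trp53 R270H;MMTV-Cre. The labels do not tie a genotype to a tumor number. In the methods both lung tumors came from the primaries with Pik3ca H1047R, which leaves Trp53 R270H;MMTV-Cre for tumor 594. Which of 323 and 307 carried which genotype is not stated. The labels call tumor 594 a sarcomatoid carcinoma and the other 4 sarcomatoid adenocarcinomas. The adenocarcinomas, tumors 105, 131, 470, 17 and 85, were all primaries of the Pik3ca H1047R;Trp53 R270H;MMTV-Cre genotype. The double mutant mice were made on a C57BL/6 background, and the strain of the other genotypes was not given in the sources used here. All genotypes carried Cre under the MMTV promoter, which acts mainly in mammary epithelium. Ages were not given in the sources used here, and nothing states how many mice gave the tumors.

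The labels name the green dye for the tumor RNA, but the green signals were more alike between arrays, so red was read as the tumor. With red as the tumor, 22 of 22 epithelial markers were lower and 16 of 18 mesenchymal markers higher in sarcomatoid tumors. If the dye label were right, these and every sign below would turn. Between 52.2% and 83.0% of probes per array were well above background in red. Adenocarcinoma 470 stood apart from the other adenocarcinomas. Its mean over 22 epithelial marker genes was -0.96, against 3.21 to 3.53 in the other 4 adenocarcinomas, 1.16 to 1.83 in the mammary sarcomatoid tumors and -1.85 to -1.30 in the lung tumors. The scanner images were extracted under 3 protocol versions (scan batches), with tumor 323 alone in batch 1, tumors 307, 594, 105 and 470 in batch 2 and the remaining 5 tumors in batch 3.

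Sarcomatoid carcinomas arise when carcinoma cells lose glandular form and take on a spindle shape, a state related to the epithelial-mesenchymal transition. Epithelial cells keep an apical and a basal surface through cell junctions, polarized recycling of membrane by Rab11 vesicles and lineage transcription factors. In whole tumor pieces, fewer cells of a type and less RNA per cell cannot be told apart.

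The median difference of the 100 genes was -1.17 on the log2 scale, or 2.25-fold lower in sarcomatoid tumors, while the median of all probes was 0.00. Differences ran from -3.77 for Bhlha15 to -0.48 for Zfp217. They were below -2 for 19 genes, between -2 and -1 for 44 and above -1 for 37. The gap itself was small for most genes. It was above 1 for 1 gene, above 0.5 for 11, above 0.25 for 44 and above 0.1 for 75, with a median of 0.211. At the limit of the list stood Ppp1r2 (gap 0.063), AK035359 (0.062) and Tecpr1 (0.060), and just outside it Rasl11b (0.058), Whamm (0.053) and Dusp16 (0.046).

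**Figure D1:**
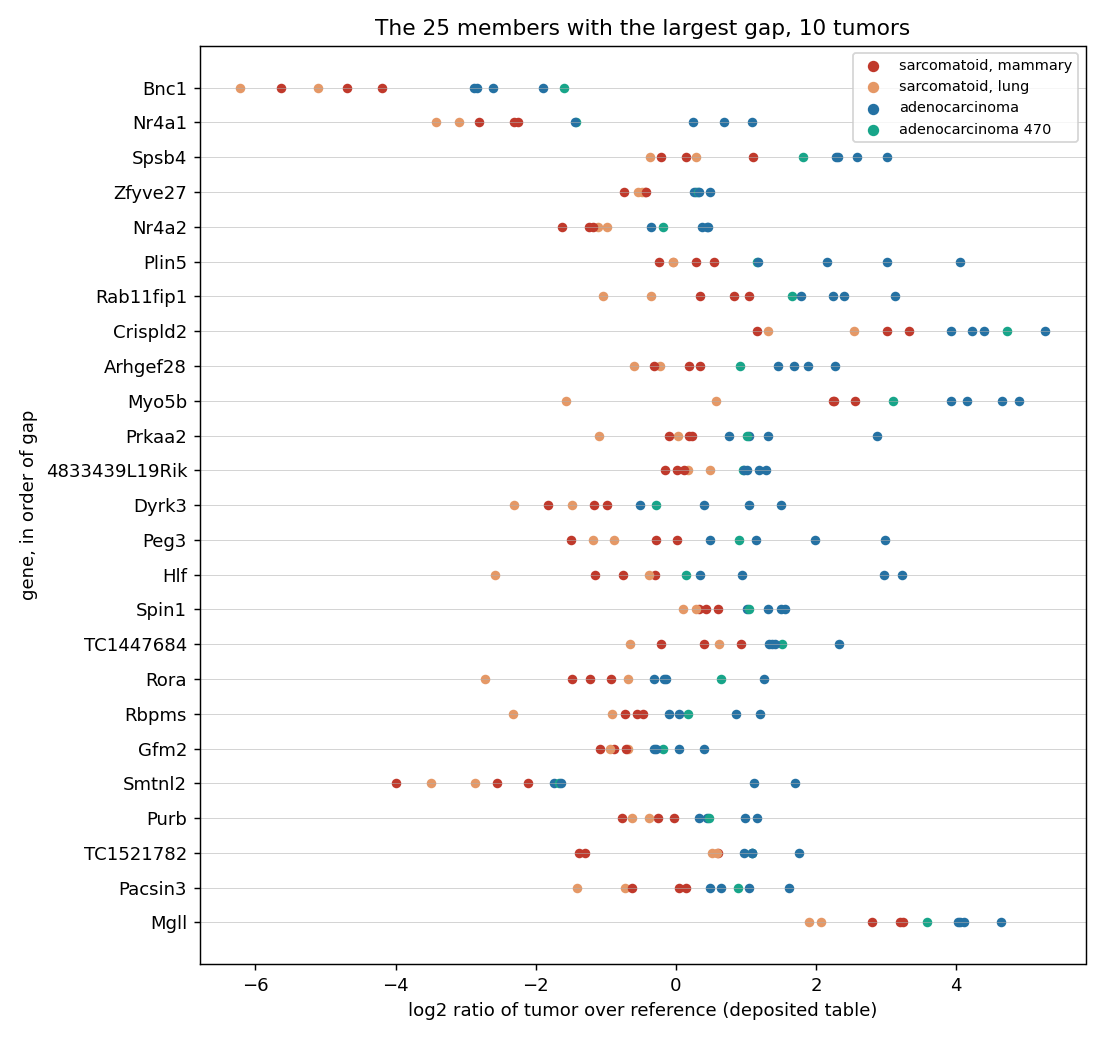
Each row is 1 of the 25 genes with the largest gap, and each point is 1 tumor on the deposited log2 scale of tumor over reference. The sarcomatoid points lie left of the adenocarcinoma points in every row because the rule required it, with the widest gap in Bnc1 (1.325) and the widest spread of adenocarcinomas in Smtnl2, Hlf and Plin5.

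Spsb4, Zfyve27 and Clk3 showed 3 forms of this pattern. Spsb4 is a SPRY domain and SOCS box protein that hands substrates to a Cullin 5 ubiquitin ligase. Its log2 ratios were 1.10 in tumor 323, 0.29 in its lung tumor, -0.21 in 307, -0.37 in its lung tumor and 0.15 in 594. In the adenocarcinomas it read 2.31 (105), 2.58 (131), 1.82 (470), 2.28 (17) and 3.01 (85). The highest sarcomatoid tumor was thus 323 and the lowest adenocarcinoma was 470, and the means were 0.19 ± 0.57 and 2.40 ± 0.44 (SD, n = 5 each), a 4.61-fold difference.

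Zfyve27 (protrudin) is a protein of the endoplasmic reticulum that binds Rab11 and kinesin and steers vesicles into cell protrusions. It read -0.74, -0.54, -0.44, -0.48 and -0.43 in the sarcomatoid tumors in the same order, and 0.26, 0.28, 0.31, 0.49 and 0.33 in the adenocarcinomas 105, 131, 470, 17 and 85. The difference was small (-0.86) but the SD was only 0.12 and 0.09 in the 2 groups, so the gap was wide (0.693). Clk3, a kinase that phosphorylates SR splicing factors, was tighter still among sarcomatoid tumors. It read -0.18, -0.22, -0.09, -0.23 and -0.15 there, and 0.44, 0.72, 0.20, 0.51 and 0.52 in the adenocarcinomas. Its difference was -0.65 and tumor 470 was again the lowest adenocarcinoma.

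The partners of these 3 proteins lay on both sides of 0. That none of them was apart is near the background of 0.468% of all probes and says nothing about the lists, which were written with earlier results of these data known. Of 8 genes for SPSB proteins and their Cullin 5 ligase 4 were lower and 4 higher, with a median of 0.02. Its closest relatives read a difference of 0.34 (Spsb1), 0.07 (Spsb2) and -0.40 (Spsb3). Of 17 CLK kinases, SR kinases and SR splicing factors 8 were lower and 9 higher, with a median of 0.01. Clk1, Clk2 and Clk4 differed by -0.23, 0.11 and -0.05. Among 13 genes for protrudin and its partners 8 were lower, with a median of -0.24, and the kinesin Kif5c was higher by 2.14.

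Transcription and chromatin genes were the most numerous of the roles, with 19 members and a median difference of -1.18. The roles were assigned from general knowledge after the values were seen, and 33 genes were given none. Bnc1 (basonuclin 1), a zinc finger factor of basal and squamous epithelium, had the widest gap. It read -5.63, -6.22, -4.69, -5.11 and -4.20 in the sarcomatoid tumors and -1.90, -2.61, -1.60, -2.88 and -2.84 in the adenocarcinomas. It was well above background on only 2 of the 5 sarcomatoid arrays. After loess normalization with background correction its difference was -1.25 in place of -2.81, and its groups overlapped by 0.10. On the sarcomatoid side this gap thus rests on spots at or near background.

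Nr4a1 and Nr4a2, orphan nuclear receptors induced rapidly by many stimuli, had gaps of 0.817 and 0.618. Nr4a1 lay between -3.43 and -2.25 in the sarcomatoid tumors. In the adenocarcinomas it split into tumors 470 (-1.42) and 17 (-1.44), and tumors 105 (0.25), 131 (0.69) and 85 (1.09). Nr4a2 differed by -1.37, with sarcomatoid tumors between -1.62 and -0.98 and adenocarcinomas between -0.36 and 0.46. Because such genes also respond to tissue handling, a list of 17 immediate response genes was added after the members were seen. Of these 13 were lower with a median of -0.20, and Nr4a1 and Nr4a2 were the only members among them. Beside the members the differences ran from -1.71 (Ier3) to 0.68 (Dusp1), with -0.61 for Ier2, -0.53 for Zfp36, -0.47 for Atf3, -0.30 for Fos and -0.20 for Egr1. The part of handling in the members' values was not tested.

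Bhlha15 (Mist1, listed as Bhlhb8), a factor of secretory cells, had the largest difference, and also the largest spread among adenocarcinomas. It read -3.44, -1.84, -2.19, -3.54 and -3.13 in the sarcomatoid tumors, and 0.01, 3.83, -1.56, -0.39 and 2.82 in tumors 105, 131, 470, 17 and 85. Tumors 131 and 85 were far above the rest. A second probe of Bhlha15 gave only -0.33, and its groups overlapped, so the size depends on the probe. Hlf, a leucine zipper factor under circadian control, showed the same kind of split, with 3.23 in tumor 131 and 2.97 in 85 against 0.34 in 105, 0.14 in 470 and 0.94 in 17. Rora, a nuclear receptor of the clock, differed by -1.66, and its 2 other probes gave -1.65 and -1.12.

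Tfap2a, a factor of ectoderm and mammary epithelium, was steadier. It lay between 0.14 and 0.64 in the sarcomatoid tumors and between 0.81 and 1.94 in the adenocarcinomas, and 470 was the lowest of these. Tead4, the DNA-binding partner of YAP and TAZ, lay between -0.61 and -0.19 in the sarcomatoid tumors. It stood out in adenocarcinomas 85 (3.01) and 105 (1.27), while 131, 470 and 17 were at 0.04, -0.01 and 0.54. The other members of this role with a gap in the top 25 were the imprinted zinc finger gene Peg3, the single-strand DNA binding protein gene Purb (-1.10) and Spin1, a reader of histone methylation (-0.94). Peg3 differed by -2.26, but by -1.25 after loess and by -1.19 and -0.62 in its other probes, and it was well above background on 3 of the 5 sarcomatoid arrays. Sp6, an epithelial factor of the Sp family, differed by -1.43, the Groucho-type corepressor gene Tle2 by -1.18, Jmy, a p53 cofactor gene, by -1.09, and the ETS repressor gene Etv6 by -0.81. Rybp (-0.72), of a Polycomb complex, Arid2 (-0.63), of a chromatin remodeller, and Pnrc1 (-0.59) differed less.

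Membrane traffic contributed 9 genes with a median difference of -1.26. Rab11fip1 (Rab coupling protein) binds Rab11 on recycling endosomes, and Myo5b is the myosin that carries those vesicles toward the apical surface. Rab11fip1 read 1.05, -1.04, 0.83, -0.36 and 0.34 in the sarcomatoid tumors and 2.24, 3.13, 1.65, 1.79 and 2.40 in the adenocarcinomas. Myo5b read 2.56, 0.57, 2.26, -1.57 and 2.24, against 4.65, 4.90, 3.10, 3.93 and 4.15. In both genes the lung tumors were the lowest of all and 470 was the lowest adenocarcinoma. The mean difference was 4.22-fold for Rab11fip1. It was -2.93 for Myo5b, which was well above background on 4 of the 5 sarcomatoid arrays and differed by -2.30 after loess.

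Ehd3, an ATPase of endosomal tubules, differed by -2.14, and Scamp1, a carrier protein of recycling vesicles, by -1.26. The membrane-bending protein gene Pacsin3 differed by -1.45, but its other probe, well above background on 8 arrays, gave -0.02. Synj2, Arfgef1 and Arl5b, which act on phosphoinositides and Arf-type GTPases, closed this set with smaller differences. Of 19 genes for Rab11 recycling, a list added after the members were seen, 13 were lower and 6 higher, with a median of -0.34. The members on it were Ehd3, Myo5b, Rab11fip1 and Zfyve27. Rab11a itself was higher by 0.54, Rab11b was lower by 0.34 and Rab25, the epithelial Rab11 form, differed by -1.08. Of the relatives of Myo5b, Myo5a was higher by 1.51 and Myo5c lower by 2.58, so the family members differed in direction.

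Lipid storage and metabolism held 9 genes with a median of -1.12. Plin5 (listed as 2310076L09Rik), a coat protein of lipid droplets, read -0.24, -0.04, 0.28, -0.04 and 0.55 in the sarcomatoid tumors. In the adenocarcinomas it read 4.05 (105), 2.16 (131), 1.16 (470), 1.17 (17) and 3.01 (85). The sarcomatoid tumors thus lay close to the reference level, and the adenocarcinomas spread over a wide range above it. Mgll, the lipase of monoacylglycerols, differed by -1.44 and was high in both groups, with sarcomatoid tumors between 1.90 and 3.24 and adenocarcinomas between 3.58 and 4.64. Prkaa2, a catalytic subunit of the energy sensor AMPK, differed by -1.55. The other members were Liph (-1.83), Pitpnc1, Acadl, Fitm2, Sptlc1 and Dgat1, the last an enzyme that makes triglycerides (-0.60). Liph and Sptlc1 overlapped after loess normalization. Of 5 adipocyte markers 3 were lower and 2 higher, with a median of -0.52.

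Cell surface genes and signalling genes held 5 and 11 members, with medians of -1.48 and -1.39. F11r (JAM-A), an adhesion protein of tight junctions, read 0.54, -1.48, 0.61, -0.62 and 0.30 in the sarcomatoid tumors and 1.72, 1.28, 0.83, 1.63 and 1.30 in the adenocarcinomas. The tetraspanin gene Cd9 differed by -1.87, but 1 of its other probes gave -1.02 and another, which was well above background on no array, gave 0.21. The remaining surface genes were Crispld2, a secreted protein gene (-2.24), Podxl and Thbs1. Among signals, Tgfa, a ligand of the EGF receptor, differed by -1.65. It lay between -0.85 and -0.06 in the sarcomatoid tumors and was at 0.06 in 470, the nearest adenocarcinoma. Adenocarcinomas 105, 131 and 17 were at 1.18, 1.17 and 1.26, and 85 was at 2.42. Pcsk6, a protease that matures TGF-beta family ligands, differed by -2.45, and Acvr1b, an activin receptor, by -1.63. Znrf3, which removes Wnt receptors from the surface, read 3.12 in tumor 131 and between 0.34 and 1.19 in the other adenocarcinomas.

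Arhgef28 (listed as Rgnef) differed by -1.76. Kank1 (listed as Ankrd15), a scaffold at focal adhesions, differed by -2.90. It read -2.96 in the lung tumor of 323, far below the other sarcomatoid tumors, which lay between -0.25 and 0.45. Protein turnover held 7 genes including Spsb4, with a median of -0.82, and RNA binding held 4 including Clk3, with a median of -0.73. In the first set were the F-box gene Fbxo9, the autophagy receptor gene Nbr1 and the ubiquilin gene Ubqln1. In the second, Rbpms differed by -1.43 and Gfm2, a factor for mitochondrial ribosomes, by -0.80. The last role, with 3 genes, joined spermine oxidase (Smox, -1.53), the mitochondrial superoxide dismutase Sod2 (-1.16) and the glutathione cycle enzyme Oplah (-0.99). The array's coordinates place the Sod2 probe on the minus strand, while RefSeq has the gene on the plus strand. This difference was not resolved.

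Smtnl2, a smoothelin-like gene (-2.55), Dyrk3, a kinase that dissolves stress granules (-1.98), and 3 genes named here by the array only completed the 25 widest gaps. These were 4833439L19Rik (-0.96), TC1447684 (-1.37) and TC1521782 (-1.40). A RefSeq gene was found for 93 of the 100, through its accession for 74, its symbol for 13 and an older name for 6, and 7 kept the name on the array.

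The highest sarcomatoid tumor was 307 in 33 genes, 323 in 22, the lung tumor of 323 in 19, 594 in 17 and the lung tumor of 307 in 9. Over all probes tumor 307 was the highest of the 5 in 13.9%. Among adenocarcinomas tumor 470 was the lowest in 52 of the 100 genes, against 20.7% of all probes. Tumor 470 thus set the gap of 52 genes. Its median over the members was 0.62, against 0.89 to 1.19 in the other adenocarcinomas and -0.37 to -0.05 in the sarcomatoid tumors. With 470 left out of the rule, a setting chosen after seeing the data, 867 genes met it in place of 124. All 100 members met it too, which was fixed in advance, since leaving out a tumor cannot narrow a gap. Only 11 stayed among the 100 with the widest gaps. Those 11 were Bnc1, Spsb4, Arhgef28, Myo5b, Adora1, Liph, Pcsk6, Kank1, Bhlha15, Tgfa and Urah.

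That 470 lay with the other adenocarcinomas for the members was required by the rule, and for the epithelial markers it did not. All 22 epithelial markers were lower on average in sarcomatoid tumors, with a median of -2.0, and 0 of 22 were apart, a count near the 0.468% of all probes. Without 470 there were 15 apart, and the share of all probes apart in that setting was not computed. The 0.468% is no background for this count, since 867 genes met the rule without 470, in place of 124. Krt8, a keratin of simple epithelium, read 1.10 to 2.33 in adenocarcinomas 105, 131, 17 and 85, was at -4.58 in 470 and -5.22 to -0.61 in the sarcomatoid tumors. None of the members was on a list of cell type markers, which is near the 0.468% of all probes and says nothing about the members. Of the other lists, 7 of 7 milk genes (median -2.14) and 7 of 7 skeletal muscle genes (-0.85) were lower. The mean of the muscle list was high in adenocarcinomas 105 (5.05) and 470 (3.71). It was -1.55 to -0.08 in the other adenocarcinomas and -1.44 to 2.99 in the sarcomatoid tumors. Higher in sarcomatoid tumors were 10 of 10 myeloid genes (1.58) and 16 of 18 mesenchymal genes (1.13). The summed level of the myeloid list, as the mean of its log2 ratios, was 2.39 to 3.40 in sarcomatoid tumors and 0.29 to 2.77 in adenocarcinomas, where 470 was the highest. T cell, endothelial and lung epithelium markers had medians of 0.18, 0.01 and 0.03. The part of these other cells in the members' values was not tested.

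**Figure D2:**
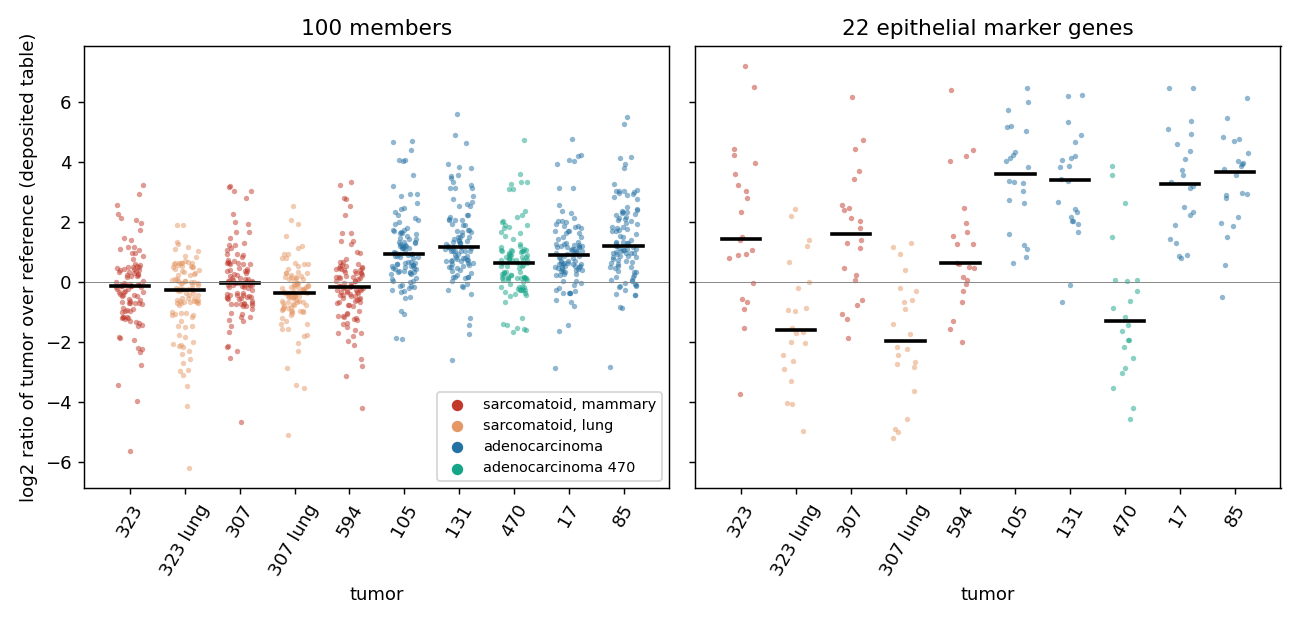
Points are the 100 members (left) and the 22 epithelial markers (right) in each tumor, on the deposited log2 scale of tumor over reference, and black bars are medians. Tumor 470 lies with the other adenocarcinomas for the members, as the rule required, and below the mammary sarcomatoid tumors for the epithelial markers.

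Normalizing the scanner intensities again gave a partly different view of the same arrays. After background correction and loess, 91 of the 100 genes were still apart, where 0.685% of all probes were. All 100 means were lower in sarcomatoid tumors, with a median of -1.0. The 9 that overlapped included Bnc1, Liph, Tmem40, Mettl27, AK037047, Sptlc1, Sidt2 and Rnpc3, by at most 0.193 (Liph). As a fold change (not in log2 units), the difference became smaller by over 1.5 times for 11 genes. These were Bnc1, Plin5, Myo5b, Prkaa2, Peg3, Smtnl2, Liph, Kng1, Bhlha15, Bex2 and Tgfa. In log2 units the difference went from -2.21 to -1.58 for Plin5, from -3.77 to -2.89 for Bhlha15 and from -1.55 to -0.94 for Prkaa2. It went from -2.55 to -1.83 for Smtnl2 and from -1.65 to -0.82 for Tgfa. All of these are the same RNA and the same arrays, so this is no independent sample. In the red channel alone, without the reference, 60 genes were apart. The share of all probes apart in that setting is not given here, so the 60 has no background beside it.

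Scan batch 2 and scan batch 3 each held both tumor types. The median difference was -0.80 in batch 2 and -1.43 in batch 3, and it was the larger fall in batch 3 for 83 genes. Batch 2 set tumors 307 and 594 against 105 and 470, and batch 3 set the 2 lung tumors against 131, 17 and 85, so the batch cannot be told apart from the site of the sarcomatoid tumors or from tumor 470. Spsb4 differed by -2.10 and -2.66 in the 2 batches, Zfyve27 by -0.72 and -0.88 and Clk3 by -0.44 and -0.81. The contrast was steeper for Bhlha15 (-1.88 and -4.77), Myo5b (-1.62 and -4.83) and Serinc2 (-1.03 and -4.42). The sign in each batch was fixed by the choice of genes. With mammary tumors alone the median was -1.12.

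**Figure D3:**
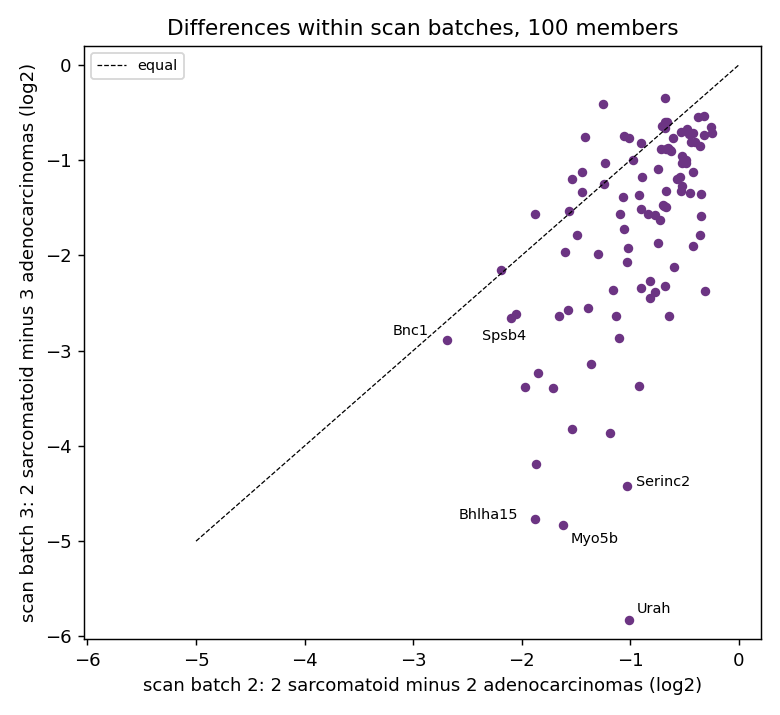
Each point is 1 of the 100 genes, with its sarcomatoid minus adenocarcinoma difference (deposited log2) in scan batch 2 on the horizontal axis and in scan batch 3 on the vertical axis. Points below the dashed line, 83 of them, had the larger fall in batch 3, which holds the lung tumors.

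The rule did not use the difference between lung and mammary sarcomatoid tumors, which was tested with limma on the loess-normalized data (2 lung against 3 mammary tumors). None of the 100 genes passed at an adjusted p below 0.05, where 2 of 41174 probes (0.00486%) did, and no member had an adjusted p under 0.131. Without adjustment, 13 genes were lower in lung at a p below 0.05, where 3.28% of all probes were, and 2 were higher, where 3.76% were. Of these 15 genes 14 are named here, because their p was seen. The rule used the values of these same arrays, and their spread within groups also enters this test. The members and all probes are thus not like sets, and these shares are a description. Of the 100 genes 68 had a lower mean in lung and 32 a higher one, with a median of -0.13, against 50.8% of all probes lower. Within the pair of tumor 323 the median was -0.10 with 57 lower, and within the pair of 307 it was -0.13 with 66 lower. Both pairs were lower for 39 genes and both higher for 16. No scan batch held lung and mammary sarcomatoid tumors together, and the lung tumors grew from cultured cell lines, so site, batch and culture cannot be told apart.

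Serinc2, a membrane protein gene of the serine incorporator family, had the smallest p. Its loess-normalized log2 ratios were 1.69 in tumor 323, 2.51 in 307 and 2.30 in 594, and -0.94 and -0.51 in the lung tumors of 323 and 307. The difference was -2.89 (SE 0.36, limma adjusted p 0.131), and the 3 mammary tumors lay below the adenocarcinomas (2.73 to 3.83). In the deposited table the same fit gave -3.71 with an adjusted p of 0.0227, the only member called there. Across the alternatives the adjusted p of Serinc2 ran from 0.0227 to 0.435. Urah, an enzyme of urate breakdown, showed the same shape, with 2.77, 2.92 and 2.63 in the mammary tumors and -0.09 and -0.51 in the lung tumors (-3.07, SE 0.55, limma adjusted p 0.305).

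The other genes lower in lung that are named were Tmem40 (-1.72), F11r (-1.50), Smox (-1.46), Ehd3 (-1.32), Rab11fip1 (-1.11), Oplah (-1.11), Mgll (-0.98), Pacsin3 (-0.87), Btbd3 (-0.80) and Rell1 (-0.57). The scaffold gene Tanc1 (0.73) and Fam193b (0.79) were higher in lung. All 9 genes of membrane traffic had a lower mean in lung, against 68 of the 100, and 3 of them (Ehd3, Rab11fip1 and Pacsin3) were among the 13. The fall was smaller than its SE for Zfyve27 (-0.01, SE 0.13), Scamp1 (-0.07, SE 0.31), Arl5b (-0.11, SE 0.24) and Synj2 (-0.14, SE 0.17). The epithelial markers were lower in the lung tumors as well, at -1.85 to -1.30 against 1.16 to 1.83 in the mammary sarcomatoid tumors, and their part in these values was not tested. For lung epithelium markers the list mean was 0.30 to 0.81 over all 5 sarcomatoid tumors.

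**Figure D4:**
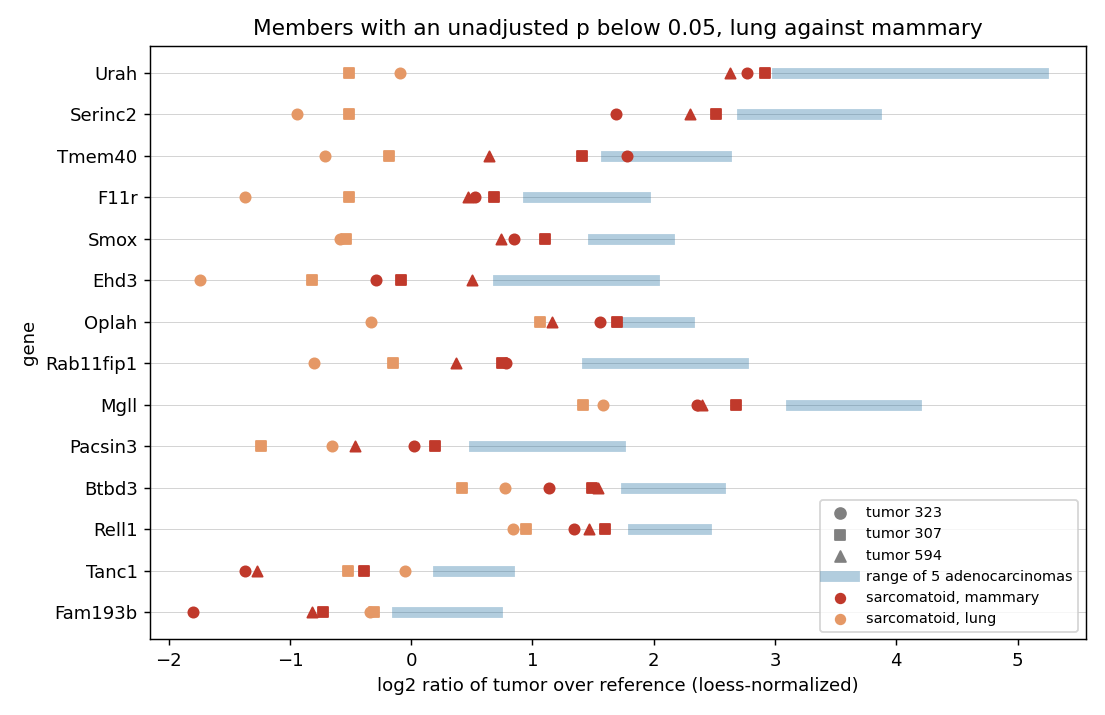
Rows are 14 of the 15 members with an unadjusted p below 0.05 between lung and mammary sarcomatoid tumors, points are the 5 sarcomatoid tumors on the loess-normalized log2 scale (shape gives the tumor number) and bars span the 5 adenocarcinomas. Both lung tumors lie left of all 3 mammary tumors in the upper 12 rows, with the widest distance in Urah (-3.07), and no gene passed the adjusted threshold.

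Other probes of the same genes are no separate check, since the rule took the probe with the largest gap on the same tumors and each other probe has a smaller gap by construction. Of the 100 genes 59 had another probe, 105 probes in all. The mean was lower in sarcomatoid tumors for 98 of these and higher for 7, and 20 were apart, where 0.468% of all probes were. Their median was -0.73, against -1.09 for the member probes of the same genes. Among the 71 that were well above background on all 10 arrays 66 were lower and 15 apart. For 52 genes every other probe was lower. Zfyve27 had 2 further probes with -0.48 and -0.44, Clk3 had 1 with -0.49, and Spsb4 had 1 with -1.54 that was well above background on 1 array. None of these 4 was apart. Another probe of Rab11fip1 was apart (-1.86), as was 1 of the 3 further probes of Myo5b (-2.07). The 7 probes that were higher belonged to Gfm2, 9530091C08Rik, Cacfd1, Cd9, Oplah, Rnpc3 and Synj2, so the probes of those genes disagreed. Some probes counted as lower lay near 0, such as those of Pacsin3 (-0.02), Sidt2 (-0.01) and Sp6 (-0.04).

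**Figure D5:**
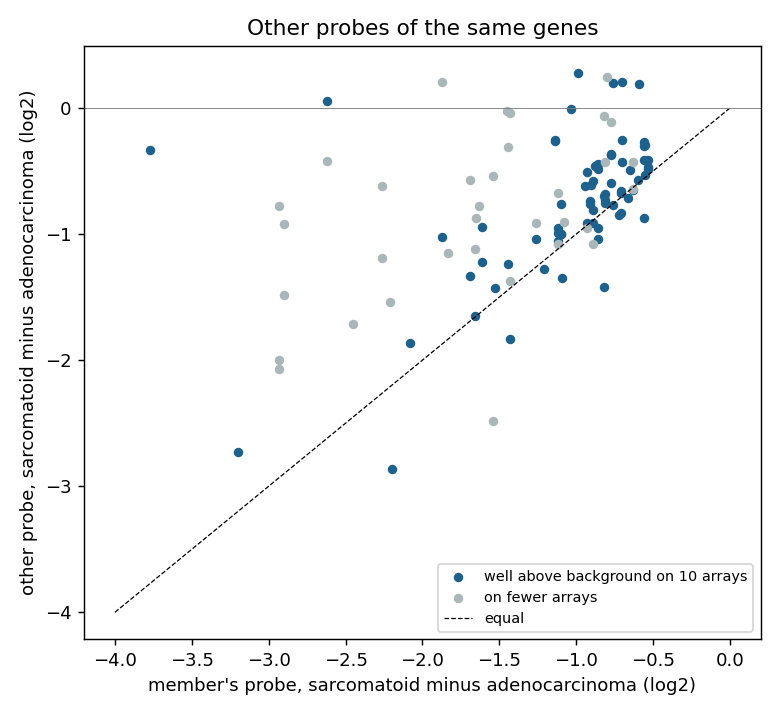
Each point is another probe of a member gene, with the difference of the member probe on the horizontal axis and its own on the vertical axis (sarcomatoid minus adenocarcinoma, deposited log2). Most of the 105 points lie below 0 and above the dashed line of equality, with medians of -0.73 and -1.09.

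Promoters (250 bases before to 50 after the start, RefSeq on GRCm38.p6) were at hand for 73 of the members and 15265 genes of the array. The letters CACCTG, which epithelial repressors such as Snail and Zeb factors bind, were in 14 member promoters on either strand (19.2%, against 18.9% of the array's genes). The cAMP response element TGACGTCA was in 5 (6.85%, against 2.54%) and the GC box GGGCGG in 55 (75.3%, against 51.5%). TATAAA was in 3 (4.11%, against 11.8%). CACGTG was in 8 (11%, against 8.61%), CCAAT in 24 (32.9%, against 38.6%), TGACTCA in 4 (5.48%, against 4.37%) and AACCGGTT in 0 (against 0.21%). Member promoters had a median GC content of 62.3%, against 58.0%, and a CpG ratio (observed over expected) of 0.80, against 0.65. GGGCGG is itself rich in G and C and TATAAA in A and T. The members were also chosen as well above background in all 5 adenocarcinomas, which was not asked of the array's genes. The parts of base composition and of this filter in these shares were not tested. All motifs were searched on both strands, and none contains another. A match is a description of the letters only.

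The windows below show the CACCTG match in genes of the membrane and junction set and in Bhlha15, and the TGACGTCA match in the 3 members where it lay before the start site. Each is read 5′ to 3′ on the strand of the gene, with the match in capitals (CAGGTG is CACCTG on the other strand).
Zfyve27, chr19:42170487-42170516: aacgcgcttgctCACCTGcgcttgggtggg
Pacsin3, chr2:91256698-91256727: cgcatcccgagcCACCTGgcgcagggatgc
F11r, chr1:171437427-171437456: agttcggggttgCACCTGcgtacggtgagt
Cd9, chr6:125494816-125494845: gcatgggcggggCAGGTGggccggggggcg
Serinc2, chr4:130275649-130275678: cagtacctgtccCAGGTGagtcctaggagg
Bhlha15, chr5:144190219-144190248: ggggcgtggccgCAGGTGccgccctggccc
Peg3, chr7:6730578-6730609: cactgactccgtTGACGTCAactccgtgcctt
Purb, chr11:6476086-6476117: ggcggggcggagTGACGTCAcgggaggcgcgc
Arl5b, chr2:15055187-15055218: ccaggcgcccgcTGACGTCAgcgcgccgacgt

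Zfyve27, Pacsin3, F11r, Bhlha15 and Arl5b lie on the plus strand, and Cd9, Serinc2, Peg3 and Purb on the minus strand. Serinc2 and Bhlha15 each had 2 such matches before the start, of which 1 is shown. The Zfyve27 match starts 68 bases before the start site. Clk3 had no such match before its start, and its nearest GC box, on the minus strand, is given for comparison with those letters in capitals.
Clk3, chr9:57765136-57765165: cggtgctgccacGGGCGGaggccagagccg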

How the data were processed

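The arrays were Agilent 2-colour mouse arrays, with 1 array per tumor. The authors deposited scanner files, read with Feature Extraction 10.7.3.1, 11.0.1.1 or 11.5.1.1 per the file headers, holding spot intensity in both channels. They also deposited a normalized log2 table of 40197 probes, made with limma by steps not given in the sources used here. The table's column medians lie between -0.0515 and 0.0669, so each array is centred near 0. Every column correlated best with the red over green ratio of its own array (r between 0.841 and 0.924 over probes, and no more than 0.741 with any other array), which sets its direction. Mean SD between arrays of the log2 processed signal was 0.738 in green and 0.987 in red.

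The rule was applied to the deposited log2 table, averaged per probe, with the widest gap standing for a gene. For the lung comparison, median spot intensity was corrected with limma 3.58.1 (R 4.3.3) by normexp (offset 50) and loess, outlier spots (0.228% to 0.576% per array) and control spots were left out, and spots were averaged to 41174 probes. limma's moderated test was two-sided in a fit of 3 groups (lung sarcomatoid, mammary sarcomatoid, adenocarcinoma), adjusted by Benjamini-Hochberg over all probes at 0.05. Tumor numbers 323 and 307 tie each lung tumor to the mammary tumor of its cell line, and a fit with tumor number as a block is an alternative. Nothing says that the tumors came from separate mice, so p-values measure only the spread between these samples. The number of arrays limits the precision.

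Gene names came from 1 scanner file and were updated through RefSeq (GRCm38.p6). Roles, gene lists and members were chosen with earlier results of these data known. Genes are named by the rule for the 3 marker genes, the 25 widest gaps, the limit of the list and the gene lists, and others were chosen after their values were seen. Alternatives tried were no background correction, median centring, between-array scaling, Agilent's processed signals, the red channel alone, a filter on dim probes, scan batch, slide, tumor number, sites, single batches and leaving out each tumor. The values of 1 member gene are not reported here.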

Additional observations from a re-analysis of the deposited data

Results flagged for a closer look

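Among 26 of the members (those with the widest gaps and Clk3), single tumors lay far from the others of their group in 5 of 52 combinations of gene and group. Such a search finds about 1 in 20 groups by chance in unselected samples, but these are the values the rule used, so the count is given as a description. Prkaa2 was such a gene in both groups. It was at -1.10 in the lung tumor of 307, where the other sarcomatoid tumors lay between -0.10 and 0.23. In adenocarcinoma 105 it was at 2.87, where the others lay between 0.76 and 1.31. After loess the lung tumor of 307 was at -0.14, close to the other sarcomatoid tumors (-0.05 to 0.14). Adenocarcinoma 105 was then at 2.22 (others 0.44 to 0.86). The Prkaa2 probe was well above background on 4 of the 5 sarcomatoid arrays. Rbpms was at -2.32 in the lung tumor of 323, where the other sarcomatoid tumors lay between -0.91 and -0.47. Adenocarcinoma 85 was the high tumor for TC1447684 (2.33, others 1.33 to 1.51) and TC1521782 (1.76, others 0.97 to 1.09).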

How the results depend on the processing

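The member list moved most with the tumors used. Of the 100 genes 11 to 80 were shared with the list made without 1 tumor, with the fewest without adenocarcinoma 470, 57 without sarcomatoid tumor 307 and 65 without adenocarcinoma 17. These settings were chosen after seeing the data. The list made on loess-normalized data shared 79 genes and the one without the filter on background shared 83. The number of members apart was 60 in the red channel alone, against 91 after loess. After loess 0.685% of all probes were apart, and that share is not given here for the red channel. The median difference after loess was -1.0, and it was -1.32 with Agilent's processed signals and -0.73 within scan batch 2. For lung against mammary tumors 2 probes passed, with 10 in the deposited table, 5 with sarcomatoid arrays alone, 0 with scan batch as a term and 1 with tumor number as a replicate block. Leaving out 1 tumor gave 0 to 34, the most without the lung tumor of 307. The count of members called was 0 in all of these except the deposited table, which called 1 (Serinc2). The replicate block changed no member's call. Limits are the 3 tumor origins, 2 lung tumors, spots not well above background in sarcomatoid tumors for 8 of the 100 genes on at least 1 array, and a dye label that names the other channel.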

Other observations

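By the mm7 coordinates that the array gives, 99 of the members had a position. Chromosome 13 held 11 of them (11.1%, against 3.84% of the array's genes), chromosome 2 held 12 (12.1%, against 8.09%), chromosome 9 held 10 (10.1%, against 5.52%) and chromosome 14 held 0 (against 3.77%). On chromosome 13 the probes of Jmy, Scamp1, Gfm2 and Arhgef28 lay between 90498210 and 94969510. Of 44 other genes in that stretch 23 were lower in sarcomatoid tumors and 0 were apart, which is near the 0.468% of all probes. Over the rest of the chromosome 531 of 986 other genes were lower and 2 were apart.

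Within 200000 bases of each other lay 3 pairs of members. The probes of Bhlha15 and Tecpr1, on opposite strands of chromosome 5, were 1080 bases apart. Bhlha15 differed by -3.77 and Tecpr1 by -0.82. Acvr1b and Nr4a1 on chromosome 15 were 61056 bases apart, and Rnf214 and Sidt2 on chromosome 9 were 73930 bases apart.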
